A study of Mus musculus with 18 samples.

Results

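Days 4 to 6 of a course of hexamethylene bisacetamide (HMBA) were set against its days 1 to 3 in murine erythroleukemia (MEL) cells, with 1 array for each day. MEL cells are an established mouse line of virus-transformed erythroid precursors that stop dividing and make hemoglobin when HMBA, a small polar inducer, is added to the culture. The comparison held the 6 arrays of series A titled day 1 to day 6, 3 on each side, out of 18 arrays in the study, and left out all day 0 arrays. Each two-colour array carried RNA of HMBA-induced cells in channel 1 and RNA of uninduced control cells in channel 2, per the labels, so both sides were read against uninduced cells. Values are log2 ratios less the median of their array, with the likely direction induced over control. Series B, a further course with days 2 to 6 and its own day 0, is given beside series A, without its 5 arrays titled SD. On those 5 the sign of the ratio appeared to have been turned already before deposit. The 3 arrays of a side are 3 different days, and nothing in the labels said that they came from separate cultures. P-values therefore measured the spread between days and arrays, which may in part be technical.

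During terminal erythroid maturation, a precursor makes a few last divisions, leaves the cell cycle, fills with globin and heme, condenses its chromatin and later loses its nucleus, mitochondria and ribosomes. Gata1 and its partners drive the erythroid genes, while Myb, Myc and Kit belong to the dividing progenitor and are known to decline. MEL cells treated with HMBA are a classical model of this switch, in which commitment comes before most hemoglobin is made. RNA of a whole culture was measured, so fewer cells of a kind and less RNA per cell cannot be told apart.

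Of 6868 probes, 3270 had at least 2 values on each side and were tested, 960 of them with a value on all 6 arrays. Between 2552 and 4945 probes had a value on an early array and between 2804 and 4873 on a late one, with the fewest on days 3 and 5. Array medians before centring were 0.034 to 0.068 early and 0.26 to 0.55 late (exact permutation test, two-sided, p = 0.1, the smallest that 3 against 3 arrays can give). The late arrays resembled each other, with correlations over probes of 0.43 to 0.70, while the early arrays hardly did, with -0.015 to 0.11. Early and late arrays correlated at 0.071 to 0.43, highest for days 3 and 5, so several early arrays were nearer to a late one than to another early one. The number of arrays limited the precision, and the median standard error of a difference was 0.75 log2.

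Late minus early, limma called 7 of the 3270 probes at a Benjamini-Hochberg adjusted p under 0.05, which is 0.214% of them. Of these, 2 were higher late (0.0612%) and 5 lower (0.153%). At an unadjusted p under 0.05 there were 370 probes (11.3%), of which 169 were higher and 201 lower. That split turned on the centring, with 338 higher and 111 lower without it and 118 higher and 220 lower with quantile normalization. Without day 4 there were 165 such probes and without day 6 there were 244. The values of the sides did not overlap for 973 probes (29.8%), 487 higher and 486 lower. Over all tested probes 1588 (48.6%) were lower and 1682 (51.4%) higher late, the median difference was 0.036 log2, 996 differed by more than 1 log2 and 170 by more than 2. Without centring the median difference of all probes was 0.36, so every direction below is relative to the median of its array.

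Among the genes that fell, Cma1, which encodes a chymase of mast cells, was at -0.067 and 2.12 on days 1 and 2 and -3.29 and -4.40 on days 4 and 5. Both late values lay far below both early ones. Cma1 fell by 4.87 log2 (SE 0.87), a 29.3-fold difference, with means of 1.03 ± 1.55 early (SD, n = 2) and -3.85 ± 0.78 late (SD, n = 2). Rps24, a protein of the small ribosomal subunit, was at 0.075, 2.48 and 0.38 on days 1, 2 and 3 and -3.61 and -2.63 on days 4 and 5, and fell by 4.10 log2 (SE 0.80). Day 2 was its highest array, and the other early values were near 0. Gml, a GPI-anchored protein of the Ly6 family, was at -0.17 and -0.72 on days 1 and 2 and -4.23 and -4.68 on days 4 and 6, and fell by 4.01 log2 (SE 0.78). Nfyb encodes a histone-fold subunit of NF-Y, the trimer that binds CCAAT boxes in promoters. Its ratio was 1.27, 0.99 and 1.30 on days 1, 2 and 3 and -2.47, -1.87 and -1.58 on days 4, 5 and 6. All 6 arrays measured it and the sides lay over 2 log2 apart, with means of 1.19 ± 0.17 early (SD, n = 3) and -1.98 ± 0.45 late (SD, n = 3). Nfyb fell by 3.16 log2 (SE 0.61, 8.96-fold). The remaining probe that fell, M000189_01, has no gene symbol in the annotation and changed by -3.98 log2.

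On the higher side, Cldn9, a claudin of tight junctions, was at 0.40, -0.091 and 2.27 on days 1, 2 and 3 and 4.36, 4.21 and 4.50 on days 4, 5 and 6. The 3 late values lay close to each other, and day 3 lay between days 1 and 2 and the late days. Its difference was 3.50 log2 (SE 0.68, 11.3-fold). Ebf3, a transcription factor of the early B-cell factor family, was at -1.78, -2.40 and -1.33 on days 1, 2 and 3 and 2.37, 0.34 and 2.63 on days 4, 5 and 6. It was below 0 on every early array and above 0 on every late one, and rose by 3.62 log2 (SE 0.69, 12.3-fold). All 7 calls shared an adjusted p = 0.0346 in limma. The calls were few enough to turn on single arrays. Limma called 0 probes without day 1, without day 2 or without day 4, 1 (Ebf3) without day 5, 3 without day 6 and 40 without day 3, but each of the 7 kept its direction in all of these fits.

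**Figure D1:**
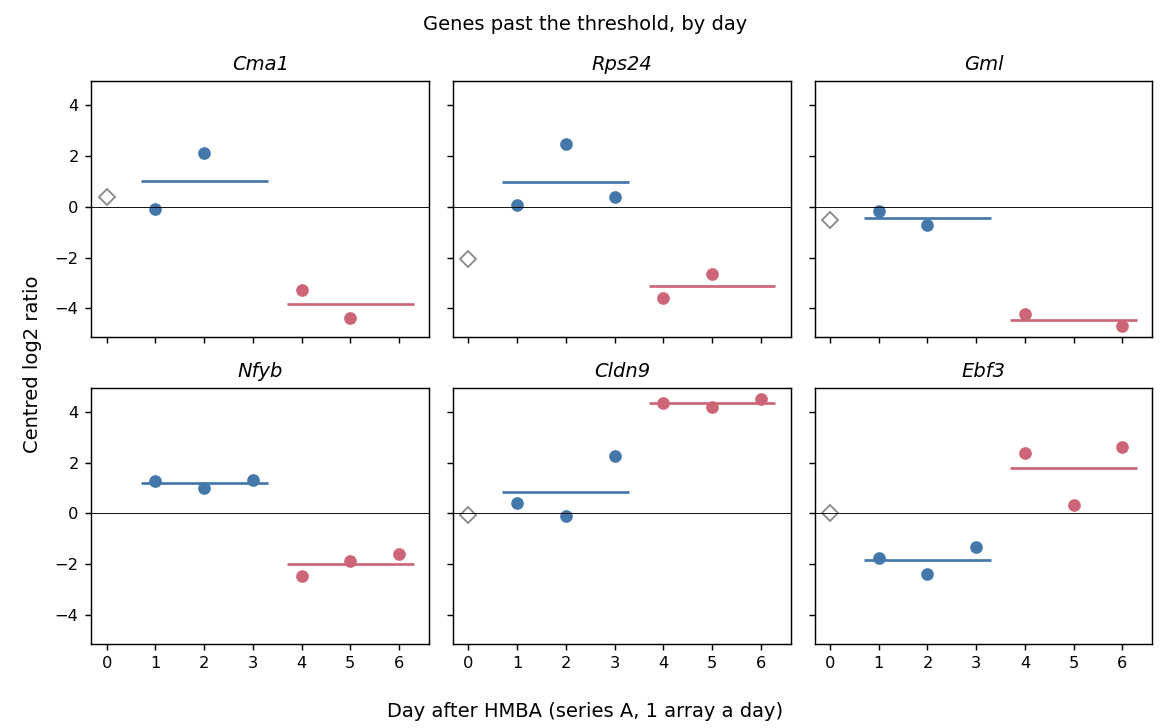
Centred log2 ratio (y axis) of the 6 named genes past the threshold by day after HMBA (x axis) on the arrays of series A, with early days in blue, late days in red, bars for the mean of each side and an open grey diamond for day 0, which was not part of the test. A missing point is a day without a value. The sides do not overlap in any panel, and Cldn9 on day 3 lies between them.

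Of 25 probes on the array for proteins of the ribosome 20 could be tested, and 20 of 20 were lower late, beside 48.6% of all probes. Their median difference was -1.62 log2, beside 0.036 for all probes. Rps24 passed the threshold (5 of 3270 probes, 0.153%, did so on the lower side), 12 of 20 had an unadjusted p under 0.05 (6.15% of all probes on the lower side), and the sides did not overlap for 12 (14.9%). The list's median ratio was -0.021, 0.44 and -0.27 on days 1, 2 and 3 and -1.77, -1.87 and -1.66 on days 4, 5 and 6. No early median lay below -0.27 and no late one above -1.66. Many ribosomal protein genes have near-identical pseudogenes, whose transcripts an array probe may not separate. Rpl9, of the large subunit, was at 0.67 and 0.32 on days 2 and 3 and -3.39, -1.87 and -3.29 on days 4, 5 and 6. Rps12 was at -0.61, 0.92 and -0.26 on days 1, 2 and 3 and -2.65, -2.18 and -2.76 on days 4, 5 and 6. Rpl27 was at 0.44, 1.10 and -0.036 on days 1, 2 and 3 and -1.56, -1.79 and -2.07 on days 4, 5 and 6. For each of these 3 every late value was below every early one, with differences of -3.34, -2.54 and -2.31 log2 that were not past the threshold (adjusted p = 0.0823, 0.175 and 0.203 in limma).

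Translation factors were less uniform, with 13 of 22 lower and a median of -0.32 log2, which was -0.0083 without centring, -0.19 without day 1 and -0.64 without day 2. Among them Eef1b2, which recharges the elongation factor that delivers tRNA, was at 0.81, 1.25 and 0.55 on days 1, 2 and 3 and -1.35, -1.79 and -1.74 on days 4, 5 and 6, a difference of -2.50 (SE 0.60). On the day 0 arrays of series A and B, without induced RNA, Eef1b2 was at -1.57 and -2.85. Eif3i, of the initiation complex eIF3, differed by -1.76. Mknk2, a kinase that phosphorylates the cap-binding factor eIF4E, lay the other way at 1.73. Of genes of the nucleolus, where ribosomes are assembled, 8 of 14 were lower, with a median of -0.30 (0.00737 without centring). That median was -0.72 without day 1, -0.067 without day 2, -0.056 without day 4 and -0.67 without day 6. Polr1b, a subunit of the polymerase that makes ribosomal RNA, was at 0.56 and 1.74 on days 2 and 3 and -2.01 and -1.74 on days 4 and 6. Its difference was -3.03 log2. Ncl (nucleolin), of the same list, differed by -2.37. Its late mean of -1.65 was near its day 0 values of -1.49 and -1.62. Npm1 (nucleophosmin), also abundant in the nucleolus, was counted here with the histones and chromatin proteins and differed by -2.10. Gas5, whose non-coding transcript hosts small nucleolar RNAs, was counted with the antiproliferative genes and differed by -2.21. Taf1c, given below and also outside the nucleolus list, lay the other way at 2.60. None of these factors passed the threshold. Eef1b2, Eif3i, Polr1b, Ncl, Npm1 and Gas5, which were named for their small p-values, were lower late without overlap of the sides. Of the whole lists, 4 of 22 translation factors and 4 of 14 nucleolus genes were so, beside 14.9% of all probes.

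**Figure D2:**
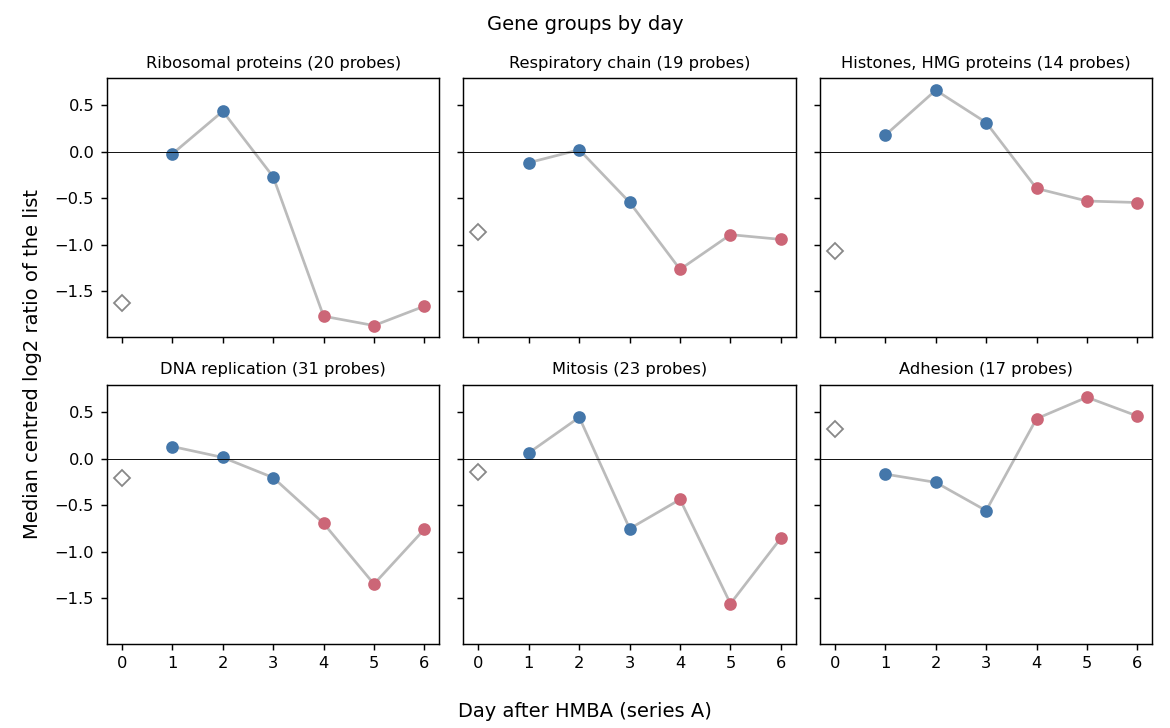
Median centred log2 ratio (y axis) over the tested probes of 6 gene lists by day after HMBA (x axis) in series A, early days in blue, late days in red and day 0 as an open grey diamond. Ribosomal proteins drop from -0.27 on day 3 to -1.77 on day 4, and stand at -1.62 on day 0.

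The ribosomal genes also had ratios below 0 on day 0. On the day 0 array of series A, which held control RNA in both channels, their median was -1.62, and on that of series B -3.47. The mean of both day 0 arrays, or the 1 value where only 1 array had it, was taken as a profile per probe that holds no induced RNA. Of the tested probes 2659 had a value on day 0 of series A and 1478 on that of series B. The scaled median absolute deviation of these arrays was 0.88 and 1.31 log2, so the profile mixes unlike spreads. The slope of an array on that profile was 0.17, 0.010 and 0.25 on days 1, 2 and 3 and 0.67, 0.48 and 0.56 on days 4, 5 and 6. All late arrays lay above all early ones (means of 0.14 ± 0.12 and 0.57 ± 0.095, SD, n = 3 each; exact permutation test, two-sided, p = 0.1, the smallest possible). Over 2719 probes the late minus early difference correlated with the profile at r = 0.43, a description across probes, with no day 0 array in the difference. With the profile regressed out of each array, an alternative chosen after seeing the data, the ribosomal median was -0.94 with 18 of 20 probes lower. Of the 6 called probes that had a day 0 value, 4 were still called (Cma1, Gml, Cldn9 and Ebf3). Rps24 was at -3.36 and M000189_01 at -3.39, both without a call. Nfyb had no day 0 value, so its difference could not be set against the profile. The part of this profile in the other differences was not tested beyond the values given beside them.

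**Figure D3:**
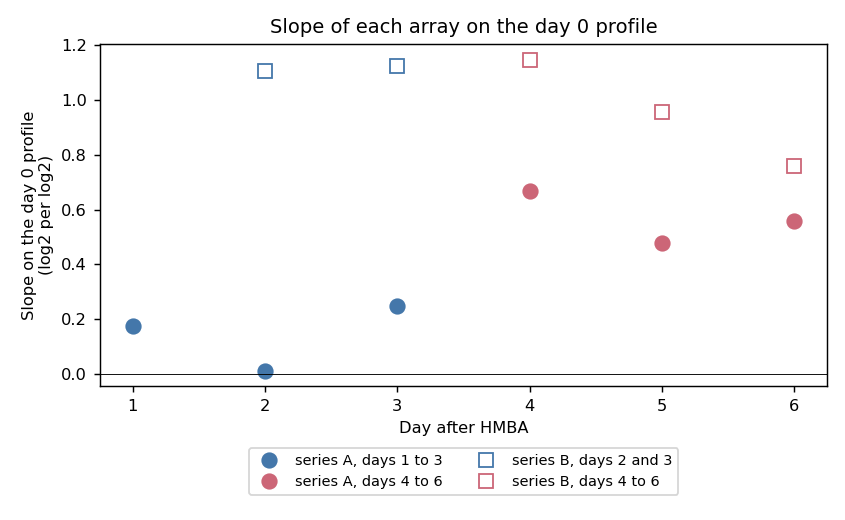
Slope of each array's centred log2 ratios on the day 0 profile (y axis, log2 per log2) by day after HMBA (x axis), with series A as filled circles, series B as open squares, days up to 3 in blue and later days in red. The profile is the mean of both day 0 arrays, or the 1 value where only 1 array had it. In series A the late arrays lie at 0.48 to 0.67 and the early ones at 0.010 to 0.25, while all 5 arrays of series B lie between 0.76 and 1.15.

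Genes of mitosis were lower late for 20 of 23 tested probes (30 on the array), with a median of -1.15 log2. Of them 0 passed the threshold (0.214% of all probes), 5 had an unadjusted p under 0.05 on the lower side (6.15%) and 10 did not overlap on it (14.9%). The median ratio was 0.061, 0.44 and -0.75 on days 1, 2 and 3 and -0.44, -1.56 and -0.86 on days 4, 5 and 6, so day 3 stood below day 4. Cenpa, the histone variant that marks centromeres, was at -0.68, -1.12 and -0.75 on days 1, 2 and 3 and -2.49, -2.62 and -4.12 on days 4, 5 and 6. Its difference was -2.23 log2 (SE 0.64, adjusted p = 0.245 in limma), and day 6 was its lowest array. Ncapg, a condensin subunit, was at 0.74 and 1.43 on days 1 and 2 and -2.07 and -1.38 on days 4 and 6, a difference of -2.81. Smc3, of the cohesin ring, differed by -1.63 and Nek2, a centrosome kinase, by -1.96, with overlapping sides for Nek2. With the day 0 profile removed the mitosis median was -0.89, with 17 of 20 probes lower.

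Of genes of DNA replication 25 of 31 were lower (36 on the array), with a median of -0.71 log2, 0 past the threshold (0.214% of all probes), 11 lower at an unadjusted p under 0.05 (6.15%) and 12 lower without overlap (14.9%). Its daily medians were 0.13, 0.012 and -0.21 on days 1, 2 and 3 and -0.70, -1.35 and -0.76 on days 4, 5 and 6. Pola2, of the polymerase alpha and primase complex, was at 1.31 and 0.81 on days 1 and 2 and -0.73, -1.30 and -1.15 on days 4, 5 and 6, a difference of -2.11. Mcm5, of the helicase that opens origins, was at 0.87 and 0.34 on days 2 and 3 and -1.91, -0.58 and -1.87 on days 4, 5 and 6, a difference of -2.06. Timeless, at the fork, differed by -2.03, and Gmnn (geminin), which blocks a second licensing of origins, by -2.06. The sides of all 4 were apart, although day 3 of Gmnn stood high at 1.33 above days 1 and 2. The list's median was -1.06 without day 2, -1.11 without day 3 and -1.12 without day 6. With the profile removed it was -0.88, with 23 of 27 lower. Nucleotide synthesis had 10 of 11 probes lower and a median of -0.85 (-0.40 with the profile removed). Of them 0 passed the threshold (0.214% of all probes) and 3 were lower at an unadjusted p under 0.05 (6.15%). Prps1, which makes the ribose precursor of all nucleotides, differed by -2.01. Hprt, which salvages purines, differed by -2.02 with overlapping sides. Its late values were -3.78 on day 4 and -0.69 on day 5, beside -1.22 on day 3.

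Cell cycle regulators were mixed, with 14 of 23 lower and a median of -0.17, or 0.14 without centring. It was -0.57 without day 2, -0.054 without day 4, -0.45 without day 5, -0.35 without day 6 and -0.085 with the profile removed. Ccna2 (cyclin A2), which acts in S phase and at entry to mitosis, was at -0.79, 0.49 and -0.26 on days 1, 2 and 3 and -2.19, -2.73 and -1.72 on days 4, 5 and 6, a difference of -2.03. Chek1, the kinase of the replication checkpoint, is not counted in this list. It was at 0.84 and 0.90 on days 1 and 2 and -3.33 and -1.35 on days 4 and 6, a difference of -3.21 from 2 values on each side. Cdc25a, a phosphatase that activates cyclin-dependent kinases, differed by -1.67. The inhibitors of the kinases of G1 parted, with Cdkn2b at 2.39 and Cdkn2c at -2.33. Btg2, which restrains division and was counted with the antiproliferative genes, was at 0.58 and -2.07 on days 1 and 2 and 2.13, 3.19 and 0.64 on days 4, 5 and 6. Its late values were all above its early ones, at a difference of 2.73 (SE 0.88), but day 1 nearly met day 6. None of these regulators passed the threshold.

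After the differences of Nfyb and of the mitosis and replication lists were seen, the promoters of these lists and of ribosomal proteins were searched for the letters CCAAT. Either strand counted (ATTGG on the strand read), within 250 bases before the start of each gene in RefSeq's table of build GRCm38.p6. Such a match is a description of the sequence and not a binding site, and a part of NF-Y in these differences was not tested. The letters were found in 34.5% of 27025 promoters and in 37.8% of those of 2266 tested genes. They were in 17 of 22 mitosis promoters (77.3%), 16 of 27 of replication (59.3%) and 4 of 15 of ribosomal proteins (26.7%), and no test was made of these shares. The 120 bases before the start are shown for the 3 members named above that hold a match there, to let the spacing be read, with the match in capitals. Ncapg holds one only farther than that from its start, Smc3, Pola2 and Timeless hold none within 250 bases, and Gmnn is not in the table. The window is chr5:30666766-30666885 for Cenpa, chr1:191821353-191821472 for Nek2 and chr8:75109389-75109508 for Mcm5, all on the + strand. Counted from the start, where the base just before it is -1, matches begin at -109 and -86 in Cenpa, at -26 in Nek2 and at -77 and -22 in Mcm5.
Cenpa: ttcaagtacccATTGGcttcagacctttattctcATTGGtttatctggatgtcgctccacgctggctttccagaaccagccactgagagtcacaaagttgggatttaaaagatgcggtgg
Nek2: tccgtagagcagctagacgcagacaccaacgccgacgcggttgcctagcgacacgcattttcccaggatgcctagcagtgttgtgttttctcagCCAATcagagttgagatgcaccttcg
Mcm5: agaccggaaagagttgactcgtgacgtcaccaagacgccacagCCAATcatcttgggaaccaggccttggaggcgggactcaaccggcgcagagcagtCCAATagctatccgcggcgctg

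Histones and proteins bound to chromatin were lower for 11 of 14 probes, with a median of -1.18 log2, 0 past the threshold (0.214% of all probes) and 4 lower at an unadjusted p under 0.05 (6.15%). The median was -0.64 without day 3 and -0.63 with the day 0 profile removed. Hmgb1, an abundant DNA-bending protein, had the largest difference of the list. It was at 1.78, 0.16 and 0.96 on days 1, 2 and 3 and -2.66, -1.12 and -2.44 on days 4, 5 and 6, a difference of -3.04 (SE 0.67, adjusted p = 0.0823 in limma), and -3.11 with the profile removed. Hmgn5 and Hmgn1, which bind nucleosomes, differed by -2.13 and -1.51. Enzymes that modify chromatin were lower for 14 of 22, with a median of -0.33 (-0.021 without centring, -0.012 without day 3 and -0.074 without day 4). Ezh2, the methyltransferase of Polycomb, was at -0.97, with overlapping sides.

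Genes of the respiratory chain and ATP synthase were lower for 16 of 19 probes, with a median of -0.89 log2. Of them 0 passed the threshold (0.214% of all probes) and 2 were lower at an unadjusted p under 0.05, near the share of all probes (6.15%). The median was -0.58 with the profile removed, where 11 of 18 were lower. Cox7c, of cytochrome c oxidase, was at -0.00071, 1.22 and 1.28 on days 1, 2 and 3 and -1.44, -0.67 and -1.86 on days 4, 5 and 6. Its difference of -2.16 was -0.98 with the profile removed, and its day 0 values were -1.89 and -4.71. Cox4i1 of the same complex differed by -1.68, whereas Cox6a2, its heart and muscle form, was 2.16 log2 higher late. Pdha1, which feeds pyruvate into the citric acid cycle and was counted with glycolysis, was at 0.51, -0.75 and -0.039 on days 1, 2 and 3 and -1.49, -1.5 and -1.5 on days 4, 5 and 6. The 3 late values of Pdha1 were nearly equal.

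Chaperones had 22 of 33 lower and a median of -0.46 (-0.11 without centring). Of them 0 passed the threshold (0.214% of all probes) and 7 were lower at an unadjusted p under 0.05 (6.15%). Their median came to -0.21 once the profile was removed, with 18 of 30 lower. Cct4, of the chaperonin that folds actin and tubulin, was at 0.53, 0.11 and 0.12 on days 1, 2 and 3 and -2.60, -2.12 and -2.32 on days 4, 5 and 6. The values of Cct4 were tight on each side, and the difference was -2.60 (SE 0.60, adjusted p = 0.103 in limma). Hsp90aa1 differed by -2.19 and Dnajc2, bound to ribosomes, by -2.60. Dnaja1, a co-chaperone of Hsp70, lay the other way at -1.53 and -1.84 on days 1 and 2 and 1.38 and 1.10 on days 4 and 5, a difference of 2.93. Proteasome subunits were lower for 18 of 23, with a median of -0.33 that was -0.023 without centring, -0.67 without day 4 and -0.30 with the profile removed, where 11 of 21 were lower. Psma4, of the 20S core, differed by -2.18.

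**Figure D4:**
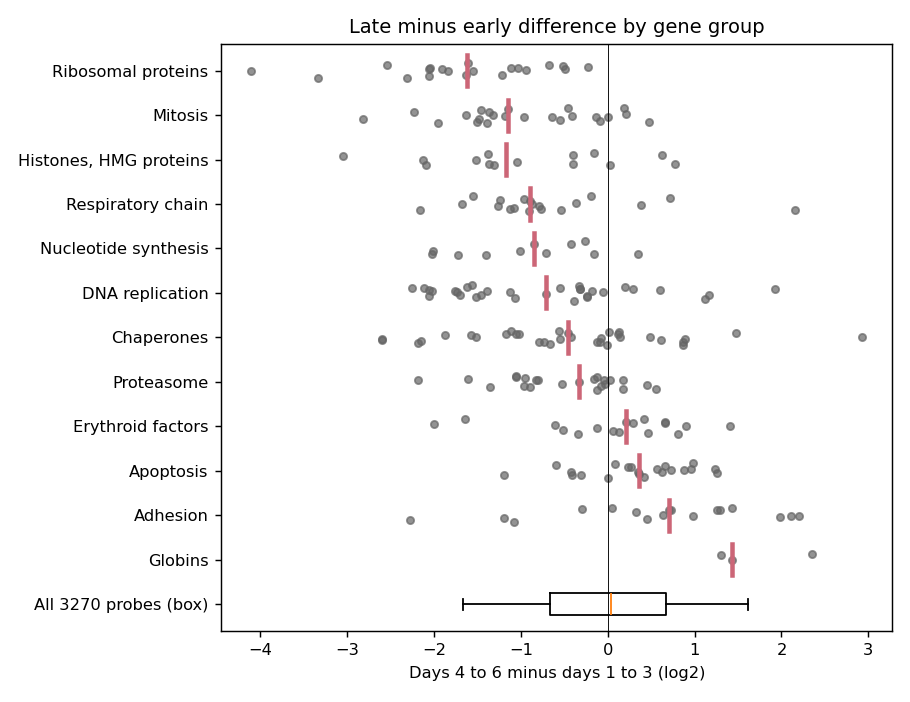
Difference of days 4 to 6 minus days 1 to 3 (x axis, log2) for each tested probe (grey points) of 12 gene lists (y axis), with the median of each list as a red bar. The box shows the quartiles and median of all 3270 probes, and its whiskers the 5th and 95th percentiles. The points of ribosomal proteins all lie below 0 around a median of -1.62, and the 3 globin probes lie above 0.

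The globin genes, whose products fill the maturing red cell, were higher late for 3 of 3 tested probes (8 on the array). Of them 0 passed the threshold (0.214% of all probes). Hbb-b2, an adult beta-globin, was at 2.43, -1.73 and 1.19 on days 1, 2 and 3 and 3.57, 3.51 and 1.86 on days 4, 5 and 6. Its difference was 2.35 (SE 0.86, adjusted p = 0.307 in limma), and day 1 stood above day 6. The probe with the symbol Hba-ps3, a pseudogene of the alpha-globin family whose signal cannot be separated from the near-identical alpha-globin genes, was at 0.69 and 5.73 on days 1 and 3 and 4.96, 4.82 and 4.13 on days 4, 5 and 6. Day 3 was thus its highest array. The difference of 1.43 (SE 1.03) became -1.09 without day 1. Embryonic Hba-x was at -1.37 and -1.87 on days 1 and 2 and 0.43, 0.11 and -1.51 on days 4, 5 and 6, a difference of 1.30, and all of its values but those of days 4 and 5 were below 0. The list's median of 1.43 was 2.63 without day 3.

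Heme synthesis genes lay both ways, with 3 of 7 probes higher and a median of -0.40. That median was -0.14 without day 2, -0.26 without day 3, -0.056 without day 4, -0.75 without day 5 and -1.05 with the profile removed. Alas2, the erythroid enzyme of the first step, was at 0.99 and 1.88 on days 1 and 3 and 2.55, 3.79 and 1.54 on days 4, 5 and 6, above 0 on each of these days, with a difference of 1.19 (SE 0.77). Alas1, its housekeeping form, differed by -1.31, Ppox, of the last but one step, by -0.77, and Tspo, a porphyrin-binding protein of the mitochondrial membrane, by -1.47. Tfrc, the transferrin receptor, was at 0.92, -1.28 and 0.48 on days 1, 2 and 3 and 1.5, 1.31 and 0.18 on days 4, 5 and 6, a difference of 0.96 with overlapping sides. Slc40a1, the iron exporter ferroportin, was at 0.81 and 1.30 on days 1 and 2 and 0.15, -0.91 and -0.50 on days 4, 5 and 6. Its difference was -1.48. Slc11a2, an importer of iron, differed by -0.95 and Heph, a ferroxidase, by 0.71. Of red cell membrane genes 8 were higher and 9 lower, among them Car2 (carbonic anhydrase), at 0.74 and 1.27 on days 1 and 3 and -2.19, -0.62 and -2.65 on days 4, 5 and 6 with a difference of -2.82, and Dmtn (dematin), which bundles actin of the skeleton, with -2.08. On day 0 of series A, without induced RNA, Car2 was at -1.64, beside a late mean of -1.82. Rhag, of the Rh complex, was at 0.98. None of these genes of heme, iron and membrane passed the threshold.

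Of erythroid transcription factors 11 of 17 were higher, with a median of 0.22 that was -0.088 without day 5, 0.42 without day 1, 0.34 without day 4 and 0.48 without day 6. Gfi1b, a repressor needed in erythroid and megakaryocytic cells, was at 1.13, 0.68 and -0.36 on days 1, 2 and 3 and -1.83, -1.39 and -1.34 on days 4, 5 and 6, a difference of -2.0 (SE 0.63). On the day 0 arrays, without induced RNA, Gfi1b was at -1.41 and -1.82, near its late values. Its difference was -1.54 with the profile removed. Tal1, a partner of Gata1, was at -1.01, -2.28 and -1.24 on days 1, 2 and 3 and -0.79, -0.078 and 0.54 on days 4, 5 and 6, a difference of 1.40. The sides of both were apart. Zbtb7a, which silences embryonic and fetal globin genes, was at 0.91, and Tcf12, which pairs with Tal1, at -1.64, where day 2 alone stood high at 3.81. Gata1 was at 0.15 and 0.43 on days 2 and 3 and -1.02, 1.15 and -0.30 on days 4, 5 and 6, a difference of -0.34 (SE 0.76), with day 5 above and days 4 and 6 below its early values. None of them passed the threshold.

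Of progenitor factors and receptors 7 were higher and 8 lower. Myb, which holds erythroid progenitors in division, was at -0.43, -0.49 and -2.37 on days 1, 2 and 3 and -3.13, -3.81 and -3.09 on days 4, 5 and 6. It was below 0 on every array, and the late days lay lower than all early ones at a difference of -2.25 (SE 0.67, adjusted p = 0.248 in limma). Myc was at -0.37, 0.16 and 1.10 on days 1, 2 and 3 and -1.56, -2.61 and -0.36 on days 4, 5 and 6, a difference of -1.81 with day 6 inside the early range. Kit, the stem cell factor receptor, was at 0.75 and 0.76 on days 1 and 2 and 0.67, 2.37 and 0.49 on days 4, 5 and 6, which is a difference of 0.42, with day 5 far above the other arrays. Csf2rb2 and Csf2rb, the beta chains of the receptors for interleukin 3 and its relatives, were higher at 2.12 and 1.85. Csf2rb2 stood at 2.03 on day 3 and 4.51 on day 5. Socs3, which dampens cytokine receptor signals and is not counted in this list, was at 0.66 and 0.079 on days 2 and 3 and -2.76, -2.83 and -1.63 on days 4, 5 and 6. Its difference was -2.77. The kinase Pim1, which cytokine signals induce, was at 0.98.

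Markers of other blood cells were read for the whole lists. A ratio gives no level, so it could not be read whether a marker is present in the culture at all. Of megakaryocyte genes 4 of 4 tested (11 on the array) were higher late, with a median difference of 1.36 and daily medians of 0.75, 0.33 and -0.50 on days 1, 2 and 3 and 1.58, 1.24 and 0.91 on days 4, 5 and 6. Itga2b, the integrin chain of platelets and early progenitors, was at 0.75, 0.70 and -0.50 on days 1, 2 and 3 and 3.33, 2.72 and 1.24 on days 4, 5 and 6, a difference of 2.12 (SE 0.68). Day 6 was its lowest late array and still lay above the early ones. F2rl2, a thrombin receptor, differed by 2.69, while Pf4, a platelet chemokine, had values only late, at -0.35, 1.10 and -1.20. Their part in the late differences was not tested.

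Of mast cell and basophil genes 5 of 7 tested (16 on the array) were lower, with a median of -0.52 that ranged from -0.045 without day 2 to -2.04 without day 3. Besides Cma1, Ndst2, which sulfates the heparin of mast cell granules, was at -0.59, 1.09 and -3.92 on days 1, 2 and 3 and -4.25, -4.12 and -3.42 on days 4, 5 and 6, a difference of -2.79. Mcpt2, a mast cell protease, was at 0.69 and -5.12 on days 1 and 3 and -3.26, -5.93 and -2.16 on days 4, 5 and 6, a difference of -1.57. For Ndst2 and Mcpt2 day 3 was already as low as the late days, and Cma1 has no value on day 3. Granulocyte and macrophage markers had 7 of 10 lower, and their median of -0.25 was 0.064 without centring, -0.095 without day 1, 0.15 without day 2, -0.54 without day 3, -0.41 without day 6 and -0.037 with the profile removed (5 of 9 lower). Prtn3, Camp, Cebpb and Ngp, of granulocytes, differed by -0.96, -0.95, -0.87 and 0.66, with overlapping sides except for Camp. Lymphoid markers had 5 of 9 higher, among them the B cell genes Ms4a1 (2.62) and Cd22 (1.97). Cma1 was the single call among these marker lists.

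Adhesion genes were higher for 13 of 17 probes, with a median of 0.71. Of them 0 passed the threshold (0.214% of all probes), 3 were higher at an unadjusted p under 0.05 (5.17%) and 7 were higher without overlap (14.9%). The median was 0.39 without day 4, 0.37 with quantile normalization and 0.41 with the day 0 profile removed. Ncam1, a homophilic adhesion molecule, differed by 2.20 and Cdh2 (N-cadherin) by 1.98, which became 1.40 and 0.41 with the profile removed. On the day 0 arrays Ncam1 was at 1.74 and 1.64, above its late mean of 1.41. Itga4, by which progenitors hold to stroma, was at -0.59 and -0.48 on days 1 and 2 and -3.04 and -2.60 on days 4 and 6. It was the main exception, at a difference of -2.28, and -3.09 with the profile removed. Apoptosis genes were higher for 15 of 21, with a median of 0.36 that was 0.059 without day 2. Of them 0 passed the threshold (0.214% of all probes) and 0 had an unadjusted p under 0.05 in either direction (11.3%). Bcl2 and Bnip3 were at 1.23 and 1.26, both with overlapping sides, and Casp9 at -1.19.

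Of 56 solute carriers 30 were higher, with a median of 0.084 that lay between 0.15 and 0.27 when 1 array was left out. The glucose carrier Slc2a2 was at 0.14 and -0.28 on days 1 and 2 and 2.36, 1.88 and 1.63 on days 4, 5 and 6, a difference of 2.03, and the cystine carrier Slc7a11 differed by 2.15. Slc2a2 was at 1.36 and 1.20 on the day 0 arrays, and its difference was 1.15 with the day 0 profile removed. Lysosome and autophagy genes were split (14 of 26 higher), with the proton pump subunit Atp6v0a1 at 2.06 and the protease gene Ctsl at 1.68. Cytoskeleton (17 of 36 higher), splicing (7 of 19), ubiquitin (14 of 23), redox and metal protection (9 of 22), interferon response (8 of 15) and glycolysis (4 of 14) had medians between -0.23 and 0.24, with 0 past the threshold in each (0.214% of all probes). These medians also moved by over 1.5 times with single arrays. Lipid synthesis had 8 of 13 higher and a median of 0.29 that was -0.16 without day 1, 0.18 without day 2, 0.13 without day 4 and 0.062 with the profile removed, and Sqle, an enzyme of cholesterol synthesis, was at -0.87. Of tRNA synthetases 3 of 4 were higher, of the citric acid cycle 3 of 10, of antiproliferative genes 10 of 15 and of iron handling 5 of 11.

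Other genes with the smallest p-values did not pass the threshold. Siglec1, a sialic acid receptor of macrophages, was at -0.41, -2.37 and -2.26 on days 1, 2 and 3 and 2.16 and 1.42 on days 4 and 6. Its difference was 3.47 (SE 0.77, adjusted p = 0.0829 in limma). Tgfb2, a secreted growth factor, was at -1.41 and -0.21 on days 1 and 2 and 2.74 and 1.85 on days 4 and 5, and Has3, which makes hyaluronan, was at -1.43, -0.98 and 1.15 on days 1, 2 and 3 and 1.89 and 3.07 on days 4 and 5. For all 3 the late values were above the early ones, and day 3 of Has3 lay near them. Mmp20, the enamel protease, was at 0.35, 0.29 and 3.66 on days 1, 2 and 3 and 6.00 and 3.76 on days 4 and 6, so that day 3 stood with the late days. Taf1c, of the factor that starts ribosomal RNA transcription, was 2.60 higher but 1.40 with the day 0 profile removed. Chrng, Col9a2, Vmn2r122, Tas2r119, Cxcl15 and Pitpnm2 differed by 3.04, 2.80, 2.08, 2.43, 2.15 and 2.48. These encode a muscle acetylcholine receptor subunit, a cartilage collagen, receptors of the vomeronasal organ and of bitter taste, a lung chemokine and a phosphatidylinositol transfer protein. On the lower side Cst7, a cystatin of blood cells, differed by -3.24 and Uxt, a prefoldin-like protein, by -2.45.

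A linear slope over days 1 to 6 asked whether the change ran on through the course. The fit called 2 of 3270 probes (0.0612%), 1 each way (0.0306%), Cldn9 at 1.02 and Cma1 at -1.41 log2 a day (limma, adjusted p = 0.0393 for each), and 209 had an unadjusted p under 0.05 (6.39%). Has3 followed at 1.19, Gml at -1.002 and Ebf3 at 0.97, with an adjusted p = 0.0542 for each. The slope called 0 without day 2 or day 4, 1 without day 5 and 9 without day 3. Nap1l5, a nucleosome assembly protein, was at -0.15, 0.12 and 2.66 on days 1, 2 and 3 and 2.70, 2.66 and 3.27 on days 4, 5 and 6. Its ratio on day 3 was already that of the late days. Myb and Ndst2, on the lower side, were likewise nearer to their late mean on day 3. Most probes were not. Of 249 at an unadjusted p under 0.05 for late minus early with the values needed, day 3 was nearer to the late mean for 53. For the other 196 it was nearer to days 1 and 2.

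Series B asked the same with its own arrays, days 4 to 6 (3 arrays) against days 2 and 3 (2 arrays). No probe of 1385 was called by limma (0 past an adjusted p of 0.05), and 17 (1.23%) had an unadjusted p under 0.05. Over 1087 probes measured in both series the differences had r = -0.057 across probes, as a description. Of the 97 probes that were higher in series A at an unadjusted p under 0.05, 46 were higher in series B, and of the 38 that were lower, 13 were lower. Of all 1087 probes 56.9% were above 0 in series B. The difference between the series was tested in 1 fit over 11 arrays, where 0 of 1087 were called and 55 (5.06%) had an unadjusted p under 0.05.

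Ebf3 was 0.93 log2 higher late in series B (SE 1.08, unadjusted p = 0.4 in limma). Its difference between the series was 2.69 (unadjusted p = 0.0387, adjusted p = 0.911 in limma). The other named calls had too few values in series B for a fit. There Nfyb was at -2.91 on day 2 and -3.66 on day 6, and Rps24 at -3.61 on day 2 and -8.28 and -0.58 on days 4 and 5. Cma1 was at 0.077 on day 2 and -1.14 and -1.52 on days 4 and 5. Late minus early in series B, Myb differed by -0.29 beside -2.25 in series A, Itga4 by -1.20 beside -2.28, Itga2b by 0.97 beside 2.12, Btg2 by 1.65 beside 2.73 and Hba-ps3 by 3.26 beside 1.43. These 5 are examples with the same sign in both series, and their difference between the series had unadjusted p = 0.105, 0.385, 0.317, 0.43 and 0.195 in limma. Other named genes had opposite signs, such as Hba-x at 1.30 in series A and -0.096 in series B, Gfi1b at -2.0 and 0.24, Npm1 at -2.10 and 0.30, Gas5 at -2.21 and 1.24, Ncam1 at 2.20 and -0.52 and Uxt at -2.45 and 0.83. Siglec1 had the smallest p of that test, at 3.47 in series A and -2.15 in series B (unadjusted p = 7.9e-05, adjusted p = 0.0859 in limma). Ribosomal proteins had 9 of 15 probes lower in series B and a median of -0.25, beside -1.22 in series A over the same 15 probes. Mitosis had 4 of 5 lower with -1.06 (-0.55 in series A), replication 8 of 15 with -0.20 (-0.54) and adhesion 4 of 8 with -0.16 (1.01). Histones had 2 of 9 lower with 0.50 (-0.40) and the proteasome 1 of 10 with 0.59 (-0.078). These series B medians turned on its early arrays. Over all 1385 probes of series B the median difference was 0.12, but 0.60 without day 2 and -0.32 without day 3. Directions in series B are thus uncertain where a list median lies within that range. All 5 arrays of series B carried the day 0 profile at slopes of 0.76 to 1.15, above every array of series A, and their late minus early difference correlated with it at r = -0.14 over 1373 probes.

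**Figure D5:**
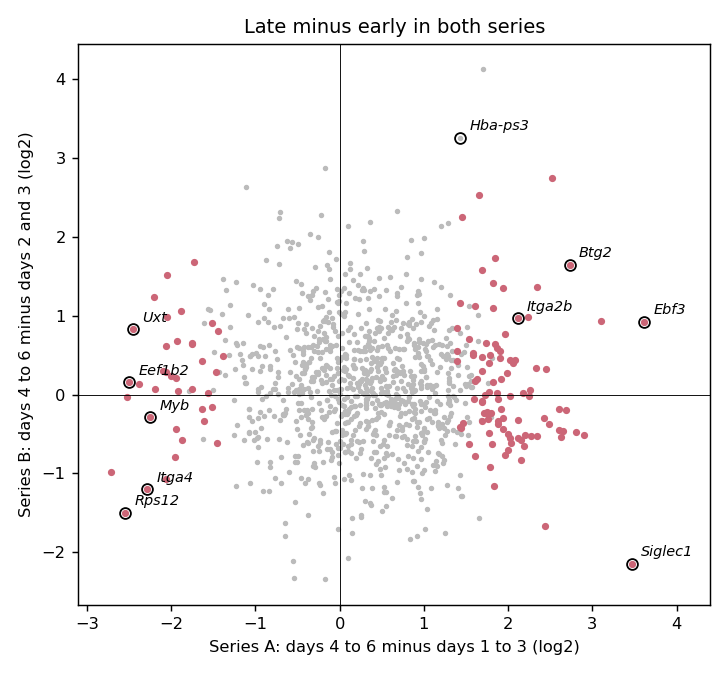
Late minus early difference of 1087 probes in series A (x axis, log2) and series B (y axis, log2). Probes at an unadjusted p under 0.05 in series A are red, others grey, and named genes are circled. The differences are hardly related (r = -0.057), and Siglec1 lies at the lower right with 3.47 and -2.15.

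Some genes could not be compared because a side had no value for them. On all 3 late arrays and no early one there were 32 probes, and 19 on all 3 early arrays and no late one. Among the former, Slc35b4, a carrier of nucleotide sugars, was at 1.78, 1.17 and 0.70 on days 4, 5 and 6. Kif11, the kinesin that separates spindle poles, was at -0.94, -1.93 and -0.74, and Runx1, a transcription factor of blood stem cells, at -0.88, -0.58 and -0.88. Their late values kept 1 sign on all 3 days. Chd1, a chromatin remodeler, was at 0.23, 0.99 and 0.67, and Atp5a1, of ATP synthase, at -1.22, 0.95 and -0.91. Cish, which dampens cytokine receptor signals as Socs3 does, was at 3.75, 3.27 and 1.30, and was chosen after its values were seen. Among the latter, Pik3cd, a lipid kinase of white blood cells, was at -1.48, -1.89 and -0.54 on days 1, 2 and 3, and Hoxb5 at -0.73, -0.51 and -2.80. H2-T23, Gbp2, Krt13 and Igkv4-68 had early means of -0.60, -0.21, -1.11 and -0.87. A missing value gives no level here, since the reason for it was not given in the sources used here.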

How the data were processed

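Two-colour arrays of 6 days of series A were used, grouped by their titles into days 4 to 6 and days 1 to 3. The deposited series table held log2 ratios, a scale read from its values, because 2 to the power of a low value is a ratio with 3 decimals. The sources used here do not give the dyes, scanner, normalization or spot filters of the authors, so the direction is likely and not certain; per the labels channel 1 held induced RNA.

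Each array was centred on its median. Probes with at least 2 values on each side were fitted with limma 3.58.1 in R 4.3.3 (lmFit and eBayes, two-sided, Benjamini-Hochberg over all 3270 probes, threshold 0.05, prior SD 0.82 log2 on 15.3 degrees of freedom). The slope, series B and the difference between the series were fitted likewise. The steps were tested on 10 simulated data sets with independent noise, in which 200 of 3270 probes were changed. Of changes of 1, 2, 3 and 4 log2, 0.4%, 13%, 61.8% and 90.6% were called, with 3.6 false calls on average. A gene not past the threshold may thus still have changed. Python 3.11.15 made the tables.

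Symbols came from a platform annotation of 2008, where 6108 probes had 1 symbol, 41 several and 719 none; 6062 matched RefSeq's table by Entrez identifier. The comparison and the 36 gene lists were chosen with earlier results of these data known. Genes named were up to 15 each way with 1 symbol (called first, then smallest p), the globins, Alas2, Tfrc, Gata1, Myb, Myc, Kit and Btg2, up to 4 with the smallest p of each list of at least 5 tested probes, 5 each way by slope, and 6 each way with values in 1 side only. The alternatives were other scalings and filters, array weights, a shared spread, days 5 and 6 against 1 and 2, and leaving out each array. The 5 SD arrays were not used.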

Additional observations from a re-analysis of the deposited data

How the results depend on the processing

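Of the 7 calls of late minus early, 7 remained when arrays were centred on the probes of all 6 arrays and among 10 with array weights. There were 4 without centring (3 of the 7), 4 among the 960 probes with values on all 6 arrays, and 0 with equal spread of the arrays, with quantile normalization, with at least 1 value on each side, with 13 arrays sharing the spread and with days 5 and 6 against days 1 and 2. Leaving out 1 array gave 0 to 40. With the day 0 profile removed there were 4, and 9 among the probes with a day 0 value, both chosen after seeing the data. All 7 kept their sign in each of these wherever they could be measured. The slope called 4 without centring, 0 with quantile normalization, 1 with values on all 6 arrays and 0 to 9 without 1 array. The difference between the series called 1 without centring and 0 to 1 without 1 array. The cause of these moves was not tested.

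Of 156 named genes, some reversed. With days 5 and 6 against days 1 and 2, Sqle was at 0.18, Ngp at -0.044 and Gata1 at 0.27, and with the profile removed Kit was at -0.10. Leaving out 1 array gave Tcf12 -3.51 to 0.24, Hba-ps3 -1.09 to 3.95, Mcpt2 -4.47 to 1.33, Sqle -1.92 to 0.18, Cebpb -3.37 to 1.64, Ngp -0.044 to 1.37, Kit -0.18 to 0.76 and Gata1 -0.95 to 0.14. No paired analysis was possible because each array is a day of its own and the labels number no replicates. Signal over background was not known for these ratios.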
